A study of Arabidopsis thaliana with 6 samples.

Results

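MCCA, MCCB, IVD and ALDH6B2 encode mitochondrial enzymes that break down the branched-chain amino acids leucine and valine. Each was read by 1 probe set, a group of short probes for 1 transcript: 263118_at for MCCA (locus AT1G03090), 253279_at for MCCB (AT4G34030), 252570_at for IVD (AT3G45300) and 263275_at for ALDH6B2 (AT2G14170). These 4 probe sets are among 22746 used, of which 13513 are named for a single gene. They were picked by their annotation and because earlier readings of the same arrays had put them lower in glc than in wat, so their own differences are given as a description and support nothing further.

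Plants break down leucine, valine and isoleucine in mitochondria, mainly when sugar is short, as in extended darkness or senescence. After an aminotransferase and the branched-chain ketoacid dehydrogenase complex have acted, isovaleryl-CoA dehydrogenase (IVD) oxidises the leucine-derived acyl-CoA. Methylcrotonyl-CoA carboxylase, built from a biotin-carrying subunit (MCCA) and a carboxyltransferase subunit (MCCB), then carboxylates the product. ALDH6B2, methylmalonate semialdehyde dehydrogenase, acts late in the valine branch. Electrons that IVD takes from its substrate enter the respiratory chain through the electron transfer flavoprotein (ETFALPHA and ETFBETA) and its ubiquinone oxidoreductase (ETFQO), so the pathway can feed respiration when carbohydrate cannot.

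The study measured transcripts in entire seedlings of Arabidopsis thaliana, accession Col-0, at growth stage 1.02, and its title asks about genes that respond to glucose analogs the plant does not metabolise. There were 6 arrays, 1 each for groups titled glc, zer, wat, man, OMG and DOG. All groups shared the same background: a growth room at 23 °C under continuous light, Murashige and Skoog agar (0.8% agar, reduced strength) and stratification for 72 h at 4 °C. The treatment field reads "none" for every array, and no dose or duration is given. Here glc is read as glucose, and OMG and DOG as analogs, an O-methylglucose and a deoxyglucose by common usage, without the positions of their substitutions; zer, wat and man are kept as titles. With 1 array a group there is no test, no p-value and no replicate error for any value, and the number of arrays limits the precision. In whole seedlings, fewer cells that express a gene and less of its RNA per cell cannot be told apart.

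Scaling by the authors gave every array the same mean, and median signals ran from 40.2 (OMG) to 43.2 (zer). The shoot markers measured were bright: over the 6 arrays the Rubisco activase gene RCA read between 2776.9 and 3309.7 and LHCB4.2 between 1489.7 and 2256.2. Root markers were mixed. The root beta-glucosidase gene PYK10 read between 2637.8 and 3311.3, but EXPA7 (28.4 to 46.0) and EXPA18 (34.5 to 44.9) read near the array medians. The 3′ to 5′ signal ratio of the actin control, which is higher when labelled RNA is less complete, was 7.48 in zer and 6.41 in glc and lay between 3.46 and 4.66 on the other arrays. The ubiquitin pair of the same set read 2.84 in zer, 2.73 in glc and 2.24 to 2.48 elsewhere. The second actin pair read 1.86 in zer and 1.76 in glc, beside 1.55 (DOG) to 1.72 (man). The second ubiquitin pair read 1.96 in zer and 1.85 in glc, beside 1.80 (DOG) to 1.84 (wat). Zer and glc were also the arrays on which the breakdown genes read lowest. The GAPDH pairs did not set glc apart: the first read 1.38 in zer and 1.26 in glc beside 1.21 (wat) to 1.35 (OMG), and the second 1.16 in zer and 0.864 in glc beside 0.838 (DOG) to 0.944 (man). On each of the 6 control pairs the ratio was higher in zer than in glc. The part of RNA completeness in the readings was not tested.

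All 4 genes had the same arrays at the extremes. Signal was lowest in glc, next lowest in zer and highest in man, with wat, OMG and DOG close together below man. Of the 12723 probe sets at or above the array median on at least 1 array, 634 (4.98%) had glc lowest, zer next and man highest.

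IVD read 147.3 in glc, 229.0 in zer, 457.1 in DOG, 466.2 in OMG, 484.5 in wat and 555.7 in man. The gap between zer and DOG separates a low pair of arrays from the other 4, which lay within 1.22-fold of each other. MCCA read 142.7 in glc, 369.6 in zer, 697.0 in wat, 728.0 in OMG, 737.0 in DOG and 833.0 in man, the widest span of the 4 genes at 5.84-fold. MCCB, its partner subunit, read 186.5 in glc, 474.6 in zer, 625.9 in wat, 656.2 in DOG, 731.1 in OMG and 762.7 in man. On the log2 scale the zer array stood nearer to wat than to glc for both MCCA and MCCB. ALDH6B2 read 445.2 in glc, 657.3 in zer, 957.0 in DOG, 1020.1 in wat, 1028.5 in OMG and 1061.1 in man, the narrowest span at 2.38-fold. The order of wat, OMG and DOG differed from gene to gene, and without replicates none of these neighbours can be said to differ.

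**Figure D1:**
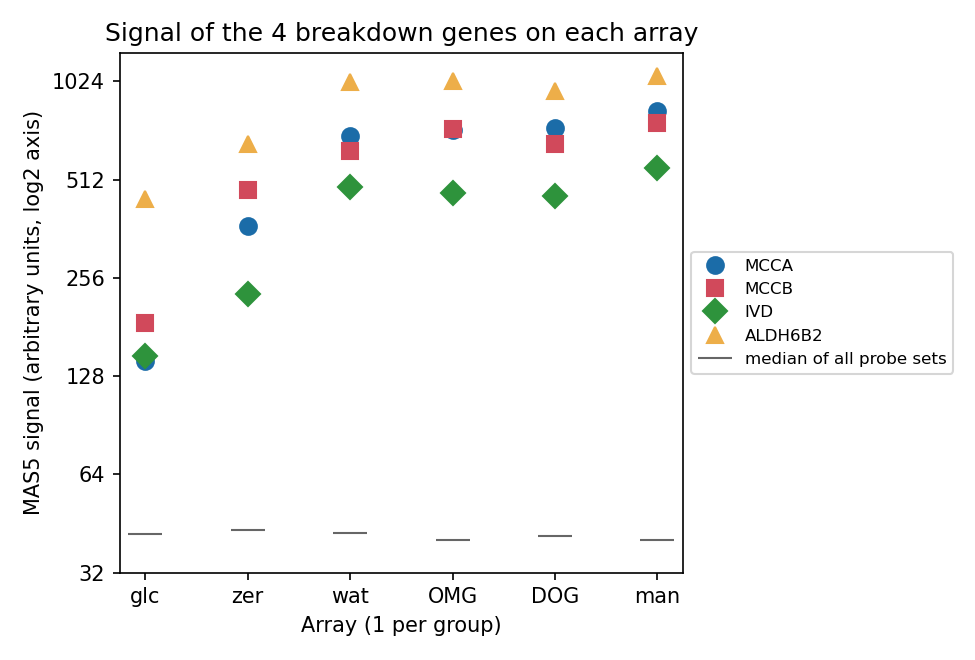
MAS5 signal (log2 axis, arbitrary units) of MCCA, MCCB, IVD and ALDH6B2 on each of the 6 arrays, 1 array per group, with the median of all probe sets as a dash. Each gene is lowest in glc and next lowest in zer, and stays well above the median everywhere.

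None of the transcripts read near the dim end of an array, though no detection call was used. The lowest reading of each was 5.25 (MCCA), 5.42 (IVD), 6.86 (MCCB) and 16.4 (ALDH6B2) times the 40th percentile of the glc array, the level used as a floor for dim signals. In wat, MCCA stood above 96.2% of all probe sets and IVD above 94.2%. In glc they stood above 79.2% and 79.8%, so both still read above most probe sets there.

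The glc array was set against wat and the analogs to separate glucose from compounds that are not metabolised. In glc, MCCA held 20.5% of its wat signal, MCCB 29.8%, IVD 30.4% and ALDH6B2 43.6%. As log2 differences from wat these were -2.29 (MCCA), -1.75 (MCCB), -1.72 (IVD) and -1.20 (ALDH6B2). All 4 were thus at least 2-fold lower, where 1.57% of the 12042 probe sets compared were, a count the choice of genes had fixed. Only 15 probe sets were as far below wat as MCCA, itself included, and 114 as far as ALDH6B2.

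Against the analogs the same genes gave nearly the same values. Compared with OMG, glc was lower by log2 differences of -2.35 (MCCA), -1.97 (MCCB), -1.66 (IVD) and -1.21 (ALDH6B2), and all 4 passed 2-fold (1.67% of all probe sets did). Compared with DOG the differences were -2.37, -1.82, -1.63 and -1.10 in the same order of genes, again 4 of 4, with 1.73% of all probe sets. Against man they were -2.55, -2.03, -1.92 and -1.25, also 4 of 4, with 2.62% of all probe sets. These comparisons share the glc array, so a low reading on that array alone would move all of them together.

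**Figure D2:**
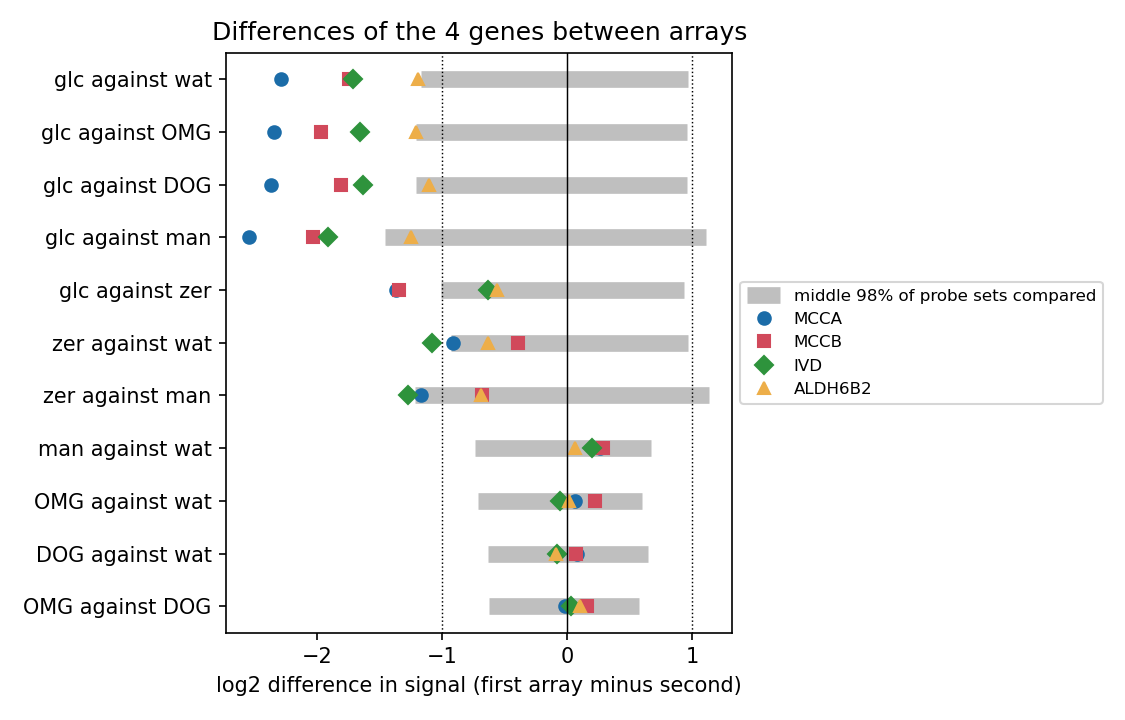
Log2 difference in signal between pairs of arrays for MCCA, MCCB, IVD and ALDH6B2, with the range that holds the middle 98% of all probe sets compared in grey and dotted lines at 2-fold. The genes lie at or below the lower end of the grey range when glc is set against wat or OMG, ALDH6B2 lies just inside it against DOG and man, and all lie near 0 for OMG and DOG against wat.

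The analog arrays read much like wat. In OMG, the log2 differences from wat were 0.06 for MCCA, 0.22 for MCCB, -0.06 for IVD and 0.01 for ALDH6B2. In DOG they were 0.08, 0.07, -0.08 and -0.09 for the same genes. None of the 4 was 2-fold from wat in either array, where 0.151% (OMG) and 0.219% (DOG) of all probe sets were. The analogs were then compared with each other, as a single pair. OMG minus DOG was -0.02 for MCCA, 0.16 for MCCB, 0.03 for IVD and 0.10 for ALDH6B2, inside the -0.63 to 0.57 that held the middle 98% of probe sets. None of the 4 was 2-fold apart, and 0.0845% of all probe sets were. Whether both analogs were given at 1 dose and for 1 time is not stated, no interval can be set on these differences, and they do not show that the compounds act alike.

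The man array was slightly above wat for every gene, by log2 differences of 0.26 (MCCA), 0.29 (MCCB), 0.20 (IVD) and 0.06 (ALDH6B2). None passed 2-fold, and 0.403% of all probe sets did in either direction. Differences as large were common: 12.2% of all probe sets were as far above wat as MCCA and 37.3% as far as ALDH6B2.

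The zer array lay between glc and wat for each gene, at a distance that differed from gene to gene. Relative to wat it was lower by log2 differences of -1.08 for IVD, -0.92 for MCCA, -0.63 for ALDH6B2 and -0.40 for MCCB. IVD alone passed 2-fold, where 0.823% of all probe sets were at least 2-fold lower. For IVD, 0.615% of probe sets were as far below wat, and for MCCB 10.8%. On the log2 scale zer lay 37.1% of the way from glc to wat for IVD, 47.0% for ALDH6B2, 60.0% for MCCA and 77.1% for MCCB. The subunit genes MCCA and MCCB, close in glc against zer (-1.37 and -1.35), thus differed more in zer against wat. They also differed in glc against wat (-2.29 and -1.75). IVD (-0.64) and ALDH6B2 (-0.56) were under 2-fold in glc against zer, so 2 of the 4 passed there, beside 1.03% of all probe sets. Against man, zer was lower by -1.28 (IVD), -1.17 (MCCA), -0.69 (ALDH6B2) and -0.68 (MCCB). This comparison shares no array with glc against wat, but the genes were chosen with earlier results of these data known. IVD and MCCA passed 2-fold in it, beside 1.86% of all probe sets. Against OMG, IVD (-1.03) passed and MCCA (-0.98) did not, so 1 of 4 did beside 0.877% of all probe sets. Against DOG, 0 of 4 passed, beside 1.08%, with MCCA (1.994-fold) and IVD (1.996-fold) just short of it.

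Over the 6 arrays, the log2 signals of the 4 genes correlated pairwise at r = 0.941 (MCCB and IVD) to 0.993 (IVD and ALDH6B2). Over wat, OMG, DOG and man alone, r ran from 0.498 (MCCA and ALDH6B2) to 0.828 (MCCA and IVD). The genes were picked as lower in glc than in wat, so a high r over all 6 arrays was partly built in. All points of a pair come from the same arrays, so the values share whatever moves an array as a whole.

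The rest of the pathway was read from a list of 18 genes of branched-chain amino acid breakdown, including the 4 described. Only 9 had a probe set named for the gene alone, 1 was on a probe set named for several genes, and 8 are not named here. Among these 8 or on the shared probe set are the branched-chain aminotransferase and most of the ketoacid dehydrogenase genes, which are therefore not described. Of the 9, 8 were bright enough to be compared in glc against wat. The 4 genes above were the ones at least 2-fold lower (1.57% of all probe sets), and 0 of 8 were 2-fold higher, near the 0.847% of all probe sets. The other 4 have no symbol beyond the locus in the platform and reference gene tables. AT2G26800 read 256.8 in wat and 179.5 in glc, a log2 difference of -0.52, and shared the order of arrays of MCCA and IVD at the extremes (glc lowest, zer next at 218.1, man highest at 283.5). AT4G20930 differed by -0.50 but was lowest in man (32.3). AT4G16800 differed by 0.15 and AT4G31810 by 0.88 (45.9 in wat and 84.4 in glc), both highest in glc. AT5G09300 was below the array median in both and read 31.3 in wat and 35.8 in glc. The median log2 difference was -0.86 over the 8 genes, -0.18 over the 4 that were not chosen, and 0.02 over all probe sets.

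The electron transfer list held ETFALPHA, ETFBETA and ETFQO, which serve IVD, and D2HGDH, a further enzyme that hands electrons to the flavoprotein. All 4 had a probe set named for them, and each read lower with glc than with wat. ETFQO read 84.4 in glc, 140.6 in zer, 189.6 in DOG, 207.1 in OMG, 210.4 in wat and 220.6 in man. It was the only 1 of the 4 at least 2-fold lower (log2 difference -1.32), where 1.57% of all probe sets were. Its arrays fell in the same order as those of IVD. ETFBETA differed by -0.48, with 124.1 in glc and 173.1 in wat, and also had glc lowest, zer next and man highest. D2HGDH, 2-hydroxyglutarate dehydrogenase, differed by -0.30. ETFALPHA differed by -0.53 but did not separate glc, at 67.3 beside 65.5 in OMG and 64.8 in zer. The median of the list was -0.51 in glc against wat, beside 0.02 over all probe sets. It was -0.41 in zer against wat, 0.02 in OMG against wat and -0.03 in DOG against wat.

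Synthesis of the branched-chain amino acids, which runs in plastids, was read for 4 of 16 genes with 0 of 4 at 2-fold in either direction, near the 2.42% of all probe sets. AT3G23940 was higher in glc than in wat by 0.66, AT3G58610 by 0.33 and ATBCAT-5, a branched-chain aminotransferase gene, by 0.18. AT2G31810 differed by -0.56 and had the arrays in the order of MCCB, from 445.6 in glc to 736.9 in man. The median was 0.25.

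Genes for the breakdown of other amino acids were measured for 5 of 14, of which 4 could be compared, and 2 of these passed 2-fold, both with less signal in glc than in wat, as 1.57% of all probe sets did. ASPGB1, an asparaginase, differed by -2.32 and MGL, methionine gamma-lyase, by -1.59. AT4G33150, the lysine-degrading LKR/SDH gene, differed by -0.69, with 126.9 in glc, 167.4 in zer, 204.2 in wat and 287.6 in man. The asparaginase gene ASPGA1 differed by 0.19 and was highest in glc.

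Of the other aldehyde dehydrogenase genes, relatives of ALDH6B2, 7 of 15 were measured. ALDH7B4 alone of these was over 2-fold lower in glc than in wat (431.4 and 955.1, log2 difference -1.15), where 1.57% of all probe sets were at least 2-fold lower. It read 730.8 in zer and 1257.1 in man, the extremes in the same order as ALDH6B2. ALDH11A3 differed by -0.59, ALDH22A1 by 0.53 and ALDH3F1 by 0.45. The family median was 0.17. The only acyl-CoA oxidation gene measured out of 8, AIM1, differed by -0.28, and no biotin-related gene of 9 had a probe set named for it.

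**Figure D3:**
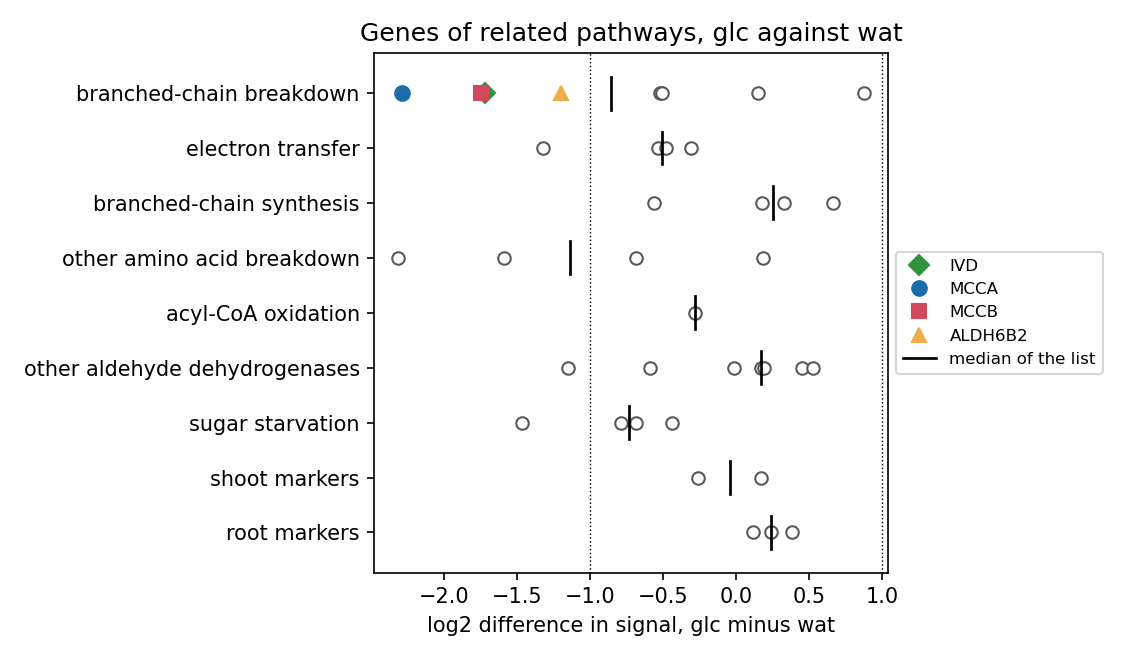
Log2 difference in signal between glc and wat for each measured gene of 9 lists that was bright enough to be compared, with the 4 breakdown genes in colour, other genes as open circles, list medians as black bars and dotted lines at 2-fold. Genes at least 2-fold lower occur in the lists of branched-chain breakdown, electron transfer, other amino acid breakdown, other aldehyde dehydrogenases and sugar starvation.

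Markers of sugar starvation were named for 4 of 10 genes, and each read lower in the glc array than in the wat array. AKINBETA1, a regulatory subunit of the SnRK1 kinase, differed by -1.47, AT3G15450 by -0.78, the autophagy gene ATG8E by -0.68 and the transcription factor gene BZIP53 by -0.44. Only AKINBETA1 was at least 2-fold lower, where 1.57% of all probe sets were. The median of these 4 was -0.73 in glc against wat, beside 0.02 over all probe sets. In zer against wat it was -0.38, and in man against wat 0.15. The list was chosen with earlier results of these data known. Of 5 shoot and root markers measured, 0 were 2-fold apart, which with 2.42% of all probe sets apart says nothing about them. RCA differed by 0.17 and LHCB4.2, a light-harvesting protein gene, by -0.26, and EXPA18, EXPA7 (both root hair expansin genes) and PYK10 by 0.38, 0.24 and 0.11. No seed marker of 4 had a probe set named for it. Whether the share of root or shoot RNA has a part in the readings was not tested.

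The genes most like the 4 were found by correlating each probe set with their mean profile over the 6 arrays. Of 526 other probe sets named for 1 gene and spanning at least 2-fold, 28 correlated above 0.98 and 104 above 0.9. GAT1_2.1, a glutamine amidotransferase-like gene, came first (r = 0.999), reading 50.3 in glc, 187.5 in zer, 508.6 in wat, 532.8 in DOG, 586.0 in OMG and 791.3 in man. AT1G19530 followed (r = 0.998), with 73.3 in glc, 228.4 in zer and 935.0 in man. The others were AT4G29950 (r = 0.997), AT1G54740 (0.996), ASPGB1 (0.996), ETFQO (0.996), AT2G32150 (0.994), AT1G72060 (0.993), AT5G56100 (0.993) and AKINBETA1 (0.992). In glc against wat these 10 were lower by 2.30-fold (AT4G29950) to 10.1-fold (GAT1_2.1). The 10 were picked for likeness to genes low in glc, so their own low glc readings follow from the choice. ETFQO, ASPGB1 and AKINBETA1 were also on the pathway lists. Those lists were chosen with earlier results of these data known, so the overlap supports nothing further. Over wat, OMG, DOG and man alone, r with the mean profile was 0.759 for ETFQO, the lowest of the 10, between 0.852 and 0.956 for the next 8, and 0.992 for GAT1_2.1.

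**Figure D4:**
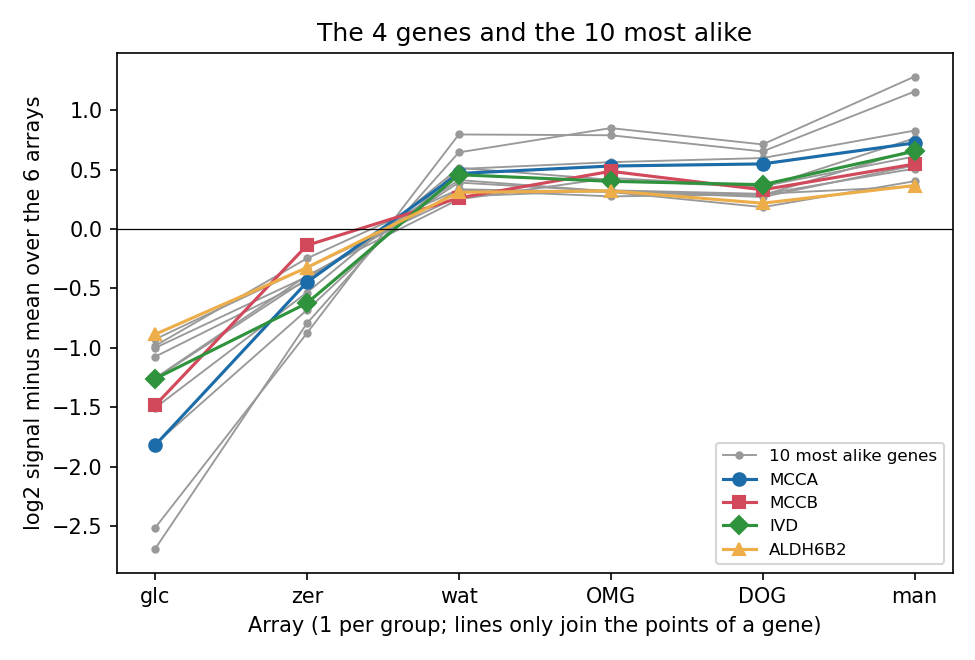
Log2 signal minus the mean over the 6 arrays for MCCA, MCCB, IVD and ALDH6B2 (coloured) and the 10 most alike genes (grey), by array. All profiles are lowest in glc, next lowest in zer and highest in man, and the 4 breakdown genes span less than GAT1_2.1 and AT1G19530.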

How the data were processed

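Labelled total RNA from whole seedlings was hybridised to 6 arrays, 1 per group, and groups were taken from the sample titles. The deposited values are linear signal intensities, made by the authors with MAS5 (per the submitters' processing notes; version and settings not given in the sources used here). Each column had a mean of 100 after trimming 2% at each end, which hides a change shared by most transcripts. After removal of 64 control probe sets, 22746 of 22810 were used. Names came from the platform annotation, updated through gene IDs to TAIR10.1 symbols (13436 of 13513 single-gene probe sets matched; 503 name several genes and 8730 are unnamed here).

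Before log2 ratios were taken, dim signals were set to the 40th percentile of the array as a floor. A probe set was compared when it was at or above the array median on at least 1 of the 2 arrays, and 2-fold was the call. Python 3.11.15 with pandas 2.3.3 was used, and the counting step was tested on simulated data. The changes planted there were large, free of noise and in bright probe sets, so only the arithmetic was checked. The text names the 4 genes, every measured gene of the breakdown list, up to 4 genes of each other list with the largest difference in glc against wat, and the 10 named probe sets with the highest Pearson correlation with the mean profile. The 4 genes and all lists were chosen with earlier results of these data known.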

Additional observations from a re-analysis of the deposited data

How the results depend on the processing

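With 1 array a group, leaving out a replicate was not possible. No paired analysis was possible because each group has a single array. The 40 differences of the 4 genes over 10 comparisons were recomputed under quantile normalization, equal medians, no floor and a floor at the 50th percentile, and for glc against wat also against the averaged log2 signals of wat and man. All 164 values stayed on the same side of 2-fold. The comparisons of zer with OMG, DOG and man were not among the 10 and were not recomputed. They include the calls nearest to 2-fold, MCCA (1.994-fold) and IVD (1.996-fold) in zer against DOG. Whether those calls hold under another scaling was not tested. The floor settings could not move the 4 genes, which read well above either floor, so only the other settings put them to a check. For glc against wat they ran from -2.42 to -2.28 (MCCA), -1.89 to -1.74 (MCCB), -1.82 to -1.71 (IVD) and -1.22 to -1.19 (ALDH6B2). The 62 recomputed counts for the breakdown list stayed within 1.5 times. For glc against wat, 1 of them averaged the probe sets of a gene, which changes nothing where each gene has 1. The only genes counted were among the 4, which the floor and filter settings could not move. These counts are therefore no separate check.

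Counts over all probe sets were less stable where few were called. With the filter on both arrays, 121 (main 214) were 2-fold apart in glc against zer, 130 (202) in zer against wat, 26 (48) in man against wat, 3 (18) in OMG against wat, 8 (26) in DOG against wat and 5 (10) in OMG against DOG. With no floor, the last 4 gave 75, 45, 45 and 25, and with the floor at the 50th percentile 31, 5, 13 and 5. The split of man against wat, 29 higher and 19 lower, became 37 and 13 after quantile normalization and 40 and 11 with equal medians. That of OMG against wat, 6 and 12, became 11 and 7 and then 11 and 6. These scalings moved the median of all probe sets by at most 0.07. Without replicates, differences of the size seen between wat, OMG, DOG and man cannot be told from array noise.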
